A study of Homo sapiens with 16 samples.

Results

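The mitochondrial ribosomal protein genes are described here in INA6 and JJN3 myeloma cells with and without repression of KANSL2. Members were taken by symbol, as every gene named MRPL or MRPS followed by a number and at most 1 letter. The rule found 78 of the 28277 gene symbols in the tables, 49 of the large subunit (MRPL) and 29 of the small subunit (MRPS). It used no measured value.

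Messenger RNA was sequenced from 2 established human multiple myeloma lines in which an inactive Cas9 fused to a repressor was brought to KANSL2 by a guide RNA, a method called CRISPR interference. KANSL2 belongs to NSL, a chromatin complex built around the histone acetyltransferase KAT8. Each line had 3 knockdown libraries (KANSL2KD) and 3 libraries with a non-targeting guide (nt), 12 in all, from cells the labels call untreated plasma cells. Per the labels all 12 were made from poly(A)-selected RNA, and the number of guides and whether a line is 1 clone are not stated there. Nor is it stated whether replicates were separate cultures, so a p-value here reflects the scatter of libraries that may be technical repeats.

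Mitochondria make a small set of membrane proteins of the respiratory chain and ATP synthase on their own ribosome. Its ribosomal RNAs come from the mitochondrial genome, while every one of its proteins is encoded in the nucleus, translated in the cytosol and imported. Some of these proteins descend from bacterial ribosomal proteins and the rest were added in mitochondria. The small subunit decodes the messenger RNA, and the large subunit joins the amino acids and holds the exit tunnel at the inner membrane. Plasma cells, which secrete antibody, are known to draw on respiration for much of their energy.

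Values are rlog values, the regularised log2 expression that DESeq2 computes, which pulls genes of low count towards their mean. Each line has its own separately normalised table, so differences were taken within a line, as knockdown minus control, and no level was set against that of the other line. A gene was tested if its mean over the 6 libraries of a line was at least 3, and was called higher or lower at a limma adjusted p below 0.05, adjusted over all genes tested. All p-values are two-sided and adjusted by Benjamini-Hochberg. Depth per library is unknown, as the tables hold no counts. In bulk RNA, fewer cells of a kind and less RNA per cell cannot be told apart.

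The target gene was checked first. KANSL2 in INA6 was at 8.06, 8.02 and 8.16 in the controls and at 7.71, 7.60 and 7.76 in the knockdown libraries, a difference of −0.39 (SE 0.0625, adjusted p = 3.06e-05). The JJN3 values were 7.25, 7.24 and 7.19 against 6.00, 5.98 and 6.06, a difference of −1.21 (SE 0.0559, adjusted p = 1.48e-16). The groups did not overlap in either line. All 10 plasma cell markers on a list of such genes were above the minimum in both lines. Of 6 markers each of T and NK, myeloid and stromal cells, 2, 1 and 0 reached it in INA6 and 1, 1 and 0 in JJN3.

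The members rose in INA6 without a fall, and went both ways in JJN3 (the plot of all tested members). In INA6, 44 of 74 tested members were higher, 0 were lower and 30 were not called. Over all genes tested in INA6, 24.7% were higher and 24.0% lower. In JJN3, 28 of 73 were higher, 11 were lower and 34 were not called, where 25.5% of all genes were higher and 25.5% lower. The median difference of the members was 0.16 in INA6 (from −0.08 to 0.50) and 0.06 in JJN3 (from −0.33 to 0.40), while over all genes it was 0.001 in each line. Changes were small, with a median absolute difference of 0.20 for called members in INA6 and 0.18 in JJN3. The standard error of a member's difference ran from 0.0410 to 0.0707 in INA6, and from 0.0403 to 0.0626 in JJN3. The control and knockdown values did not overlap for 49 members in INA6, 48 of them upwards, and for 47 in JJN3, 33 of them upwards. Over all genes the groups did not overlap for 55.2% in INA6 and 56.1% in JJN3.

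**Figure D1:**
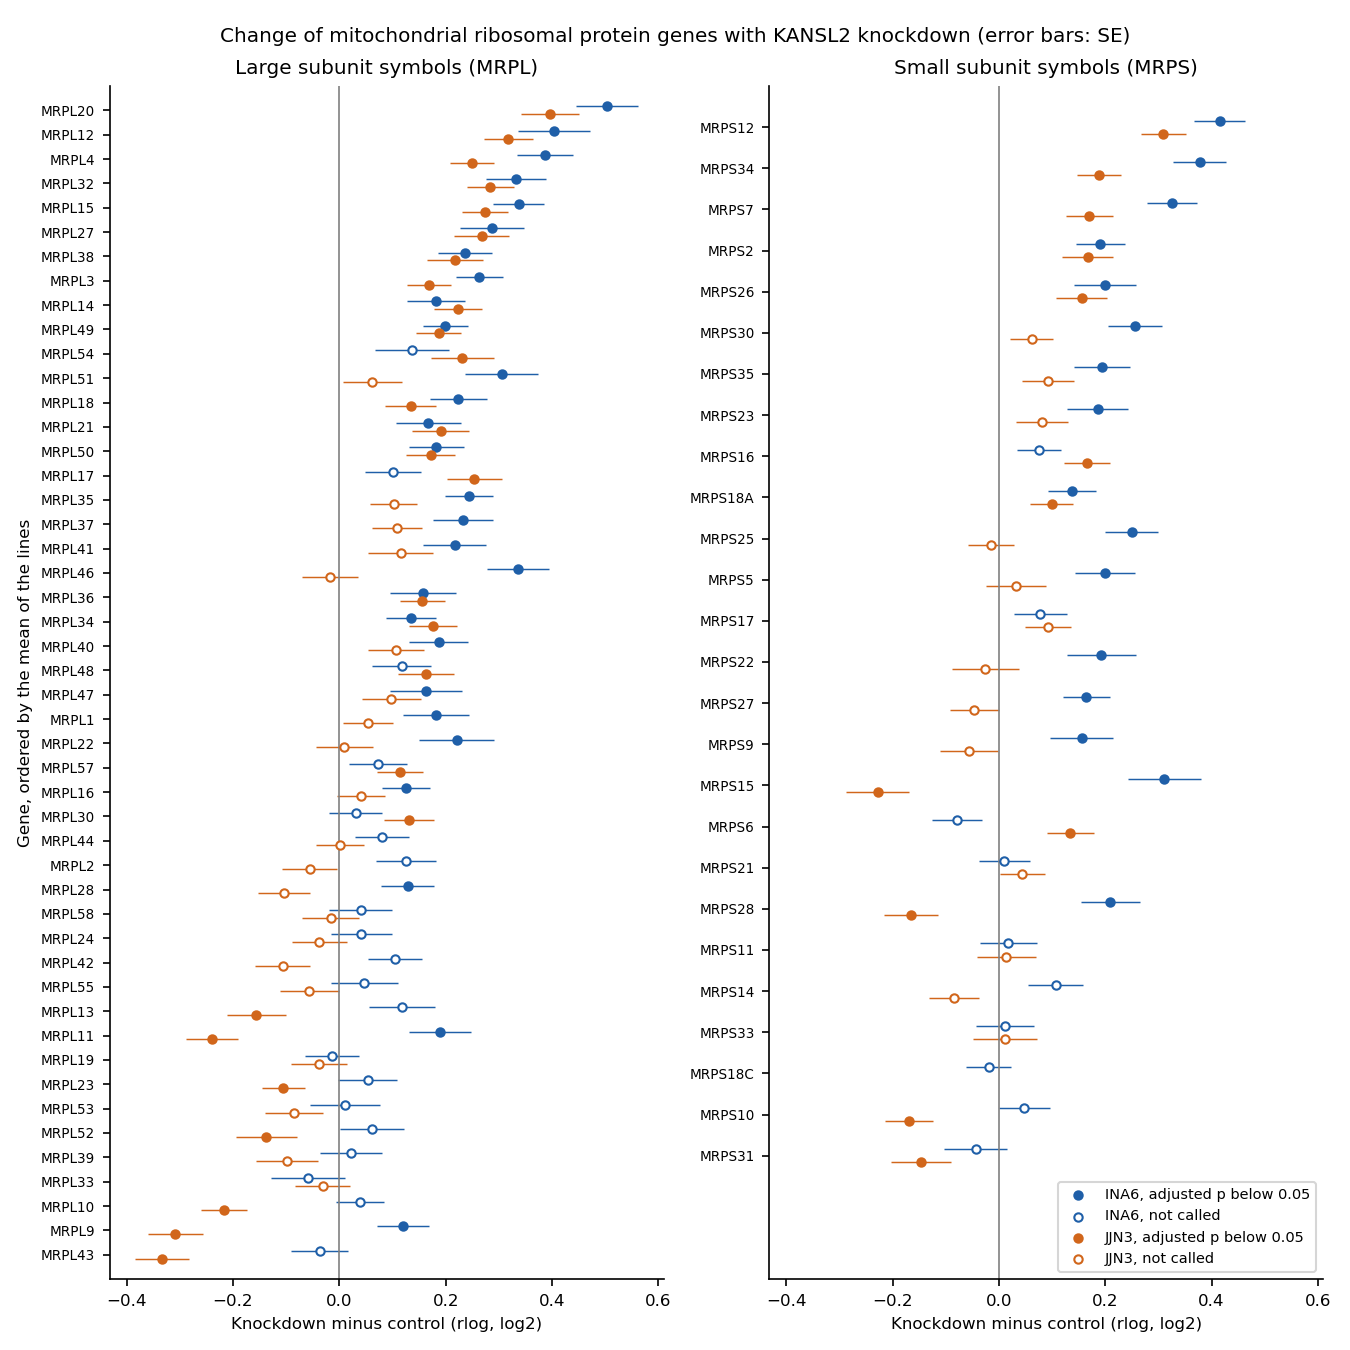
Knockdown minus control difference (rlog, log2 scale, error bars are the SE) of each tested member, large subunit symbols on the left and small on the right, INA6 in blue and JJN3 in orange. Filled points passed an adjusted p of 0.05: 44 in INA6, all to the right of 0, and 39 in JJN3, of which 11 lie to the left.

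With limma 0 members were lower in INA6 at an unadjusted p below 0.05 too, and 13 were in JJN3. Another scaling, cyclic loess normalisation, called 1 member lower in INA6. With libraries centred on their medians, the upward share of calls over all genes moved from 50.7% to 61.9% in INA6, and from 3135 rises and 3129 falls to 59.4% in JJN3. The median of all genes moved to 0.04 and 0.03. Members then had 52 rises and 0 falls in INA6, and 33 rises and 7 falls in JJN3. Quantile normalisation gave 44 rises and 0 falls in INA6, and 22 rises and 9 falls in JJN3. Cyclic loess gave 42 rises in INA6, and 21 rises and 10 falls in JJN3. Over all genes in JJN3, 24.2% were higher with quantile and 23.9% with cyclic loess normalisation. Leaving out a library gave 31 to 44 member rises in INA6 and 23 to 30 in JJN3. Without JJN3 control replicate 2 or replicate 3, 7 members were lower in JJN3 in place of 11.

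The mean over the tested members lay above the control mean in every knockdown library, though not always clear of the single controls. Set against the control mean of each gene, the large subunit members in INA6 averaged 0.12, 0.20 and 0.17 in knockdown replicates 1, 2 and 3, and the small subunit members 0.13, 0.16 and 0.17. In JJN3 the averages were 0.05, 0.05 and 0.08 for the large subunit and 0.03, 0.03 and 0.05 for the small. The control libraries of either line lay between −0.03 and 0.03 for both subunits. For the small subunit in JJN3, knockdown replicates 1 and 2 (0.0301 and 0.0300) were thus level with control replicate 3 (0.0293). Over all genes tested no library was farther than 0.01 from 0.

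A set of 21 members was higher in both lines: MRPL3, MRPL4, MRPL12, MRPL14, MRPL15, MRPL18, MRPL20, MRPL21, MRPL27, MRPL32, MRPL34, MRPL36, MRPL38, MRPL49, MRPL50, MRPS2, MRPS7, MRPS12, MRPS18A, MRPS26 and MRPS34. Another 19 were higher in INA6 and not called in JJN3, 7 were not called in INA6 and higher in JJN3, 7 were not called in INA6 and lower in JJN3, 4 were higher in INA6 and lower in JJN3, and 15 were called in neither line. No member was lower in both, and with 0 lower in INA6 none could be. The share of all genes that were higher in both lines is not given here, so whether 21 of 73 is many cannot be told. Over all 11137 genes tested in both lines the changes had Pearson r = 0.49, beside 0.54 over the members. Of the 21, 13 kept both calls under every setting tried, and MRPL3, MRPL14, MRPL18, MRPL21, MRPL34, MRPL36, MRPL50 and MRPS18A lost the call in at least 1 line. In JJN3, MRPL3 was at 0.07 (adjusted p = 0.157) and MRPL36 at 0.06 (adjusted p = 0.218) with quantile normalisation. In INA6 without knockdown replicate 2, MRPL36 was at 0.09 (adjusted p = 0.29), MRPL34 at 0.11 (adjusted p = 0.133), MRPL21 at 0.17 (adjusted p = 0.0587) and MRPL50 at 0.15 (adjusted p = 0.051), and without control replicate 3 MRPL14 was at 0.13 (adjusted p = 0.0842). Leaving out control replicate 2 or 3 also ended the INA6 calls of MRPL34 and MRPL36, control replicate 1 that of MRPL36, and control replicate 2 or knockdown replicate 3 that of MRPL21.

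MRPL20, whose bacterial counterpart binds ribosomal RNA early in assembly of the large subunit, had the largest rise in each line. In INA6 it was at 8.18, 8.14 and 8.23 in the controls and at 8.59, 8.76 and 8.71 in the knockdown libraries. The difference was 0.50 (SE 0.0583, adjusted p = 5.52e-07), a 1.42-fold rise. JJN3 gave 7.59, 7.54 and 7.46 against 7.88, 7.97 and 7.93, a difference of 0.40 (adjusted p = 6.29e-07). Every knockdown library lay above every control of its line. MRPL20 shares its locus with the antisense gene MRPL20-AS1 in RefSeq. The sources used here do not say whether reads were counted by strand or how reads in both genes were handled. The value of MRPL20 could thus hold reads of that gene or lack reads that fall in both.

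MRPS12, which sits in the decoding centre of the small subunit, had the largest rise among small subunit members in each line. In INA6 it was at 10.48, 10.42 and 10.46 in the controls and at 10.77, 10.91 and 10.93 in the knockdown libraries, a difference of 0.42 (SE 0.0483, adjusted p = 5.9e-07). The JJN3 libraries read 10.52, 10.46 and 10.47 against 10.74, 10.79 and 10.85, a difference of 0.31 (adjusted p = 4.15e-07). The knockdown values stood clear of the controls in both lines.

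MRPL12 forms the flexible stalk that recruits translation factors. In INA6 it was at 10.36, 10.32 and 10.19 in the controls and at 10.48, 10.78 and 10.82 in the knockdown libraries, with replicate 1 well below the other two. The difference was 0.40 (SE 0.0671, adjusted p = 4.48e-05). In JJN3 it was at 10.19, 10.20 and 10.15 against 10.39, 10.50 and 10.61, a difference of 0.32 (adjusted p = 1.41e-06).

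MRPL4, a conserved large subunit protein, was at 10.00, 9.91 and 9.92 in the INA6 controls and at 10.21, 10.40 and 10.39 after knockdown (0.39, adjusted p = 4.43e-06). Its JJN3 values were 9.96, 9.99 and 10.00 against 10.26, 10.19 and 10.25 (0.25, adjusted p = 1.22e-05). MRPL15, another conserved protein, rose by 0.34 in INA6 (9.78, 9.66 and 9.69 against 10.04, 10.05 and 10.04) and by 0.27 in JJN3 (9.84, 9.81 and 9.88 against 10.11, 10.09 and 10.15). Its 3 INA6 knockdown values lay almost on one level.

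MRPL32 is known to be matured by the m-AAA protease of the inner membrane. It rose by 0.33 in INA6, from 8.55, 8.67 and 8.55 to 8.94, 8.97 and 8.85, and by 0.28 in JJN3, from 9.27, 9.26 and 9.29 to 9.57, 9.53 and 9.57. MRPL27, which reaches towards the peptidyl transferase centre, rose by 0.29 in INA6 (8.24, 8.24 and 8.17 against 8.39, 8.58 and 8.54) and by 0.27 in JJN3 (8.01, 7.97 and 8.07 against 8.25, 8.26 and 8.35). MRPS34, a protein added in mitochondria, was at 11.87, 11.78 and 11.69 in the INA6 controls and at 12.06, 12.17 and 12.24 after knockdown (0.38, adjusted p = 2.87e-06). In JJN3 its controls were all at 10.43 and the knockdown libraries at 10.58, 10.60 and 10.67 (0.19, adjusted p = 0.00033). None of these values overlapped between the groups of a line. MRPS34 overlaps EME2 and MRPL4 overlaps LIMASI in RefSeq.

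**Figure D2:**
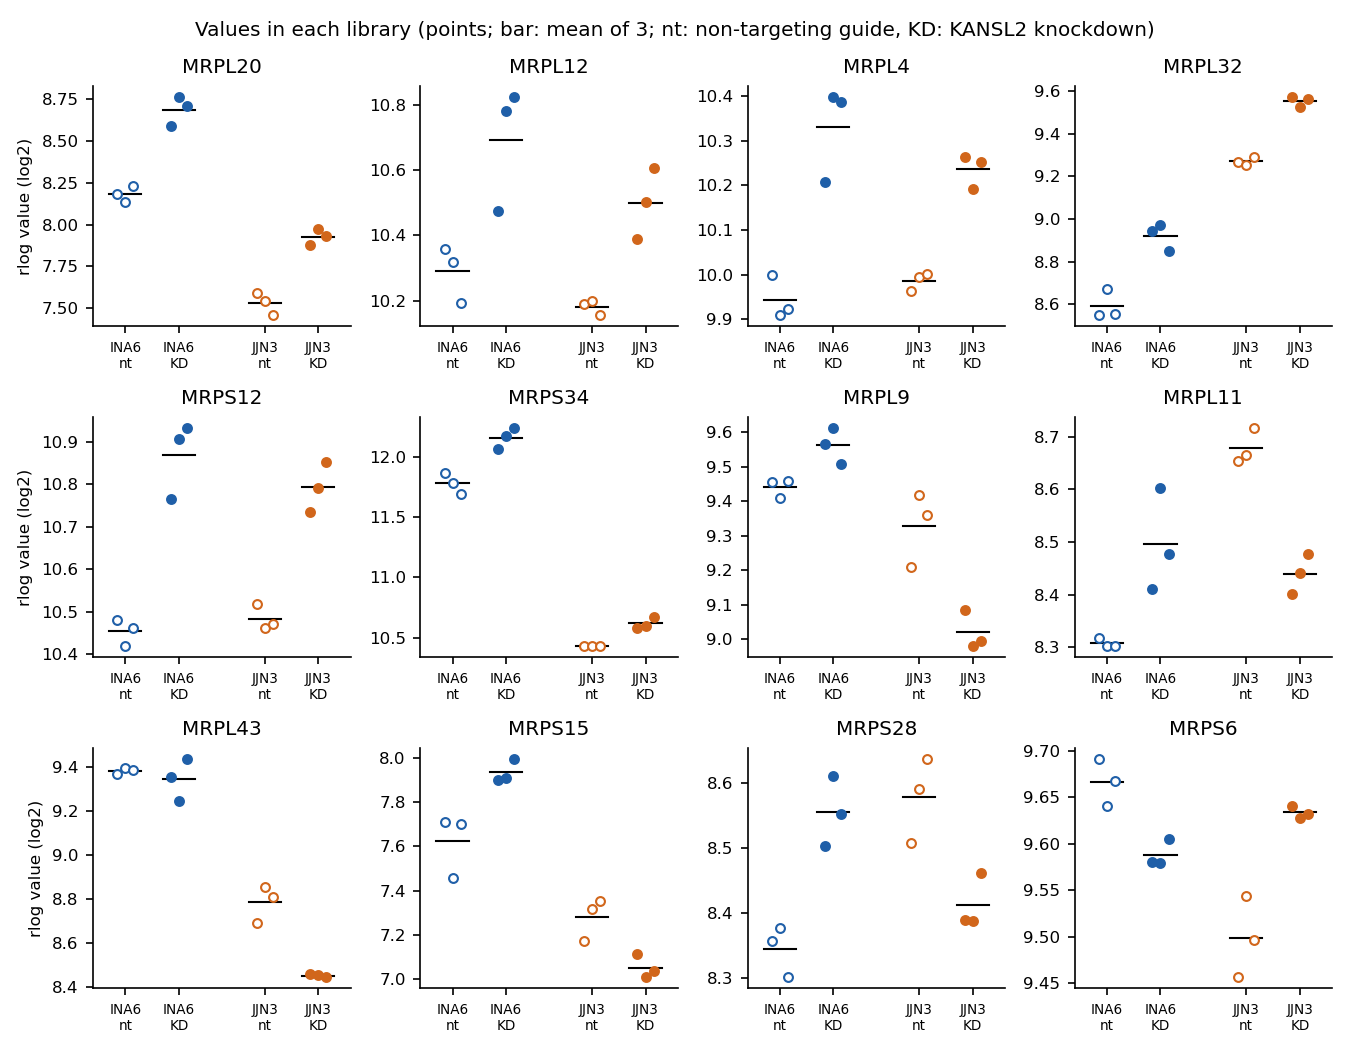
The rlog value (log2 scale, one axis per gene, not starting at 0) of 12 members in every library, control libraries as open and knockdown libraries as filled points, with a bar at the mean of 3. MRPL20, MRPL12, MRPL4, MRPL32, MRPS12 and MRPS34 are higher after knockdown in both lines, whereas MRPL9, MRPL11, MRPS15 and MRPS28 are higher in INA6 and lower in JJN3.

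The promoters of the 4 members with the largest mean rise over both lines are shown for the sequence that precedes members which rose together. Each is the 250 bases before the start site, 5′ to 3′ on the strand of the gene, from RefSeq on GRCh38.p14. Capitals mark matches, on either strand, to any of 7 motifs. The letters searched were GCGCANGCG for the respiratory factor NRF1 and CCGGAAG for the ETS family, to which the factor GABPA belongs. For the factor YY1 they were AANATGGCG and for the E-box, which MYC is known to bind, CACGTG. For the general factor SP1 the search used GGGCGG, for the box named after its own letters it used CCAAT, and for the TATA box that positions the polymerase it used TATAAA. Motifs were counted one by one, with any overlap kept. They lie at chr1:1407294-1407543, minus strand, for MRPL20, chr19:38930694-38930943, plus strand, for MRPS12, chr17:81703117-81703366, plus strand, for MRPL12, and chr19:10251701-10251950, plus strand, for MRPL4.
MRPL20: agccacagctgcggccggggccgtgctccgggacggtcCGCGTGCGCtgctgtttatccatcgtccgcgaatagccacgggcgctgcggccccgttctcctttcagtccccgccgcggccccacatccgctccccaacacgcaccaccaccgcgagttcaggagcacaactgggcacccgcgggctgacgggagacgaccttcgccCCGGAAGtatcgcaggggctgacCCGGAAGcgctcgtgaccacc
MRPS12: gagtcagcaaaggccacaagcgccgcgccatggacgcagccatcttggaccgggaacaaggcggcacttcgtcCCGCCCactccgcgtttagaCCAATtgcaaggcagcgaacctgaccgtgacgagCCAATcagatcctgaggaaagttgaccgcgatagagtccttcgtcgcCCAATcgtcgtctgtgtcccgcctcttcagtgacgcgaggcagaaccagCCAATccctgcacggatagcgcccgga
MRPL12: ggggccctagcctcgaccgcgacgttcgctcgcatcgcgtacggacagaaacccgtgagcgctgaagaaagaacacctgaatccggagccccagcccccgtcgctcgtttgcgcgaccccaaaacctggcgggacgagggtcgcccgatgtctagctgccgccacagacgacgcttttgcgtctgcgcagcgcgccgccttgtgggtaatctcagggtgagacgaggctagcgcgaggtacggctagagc
MRPL4: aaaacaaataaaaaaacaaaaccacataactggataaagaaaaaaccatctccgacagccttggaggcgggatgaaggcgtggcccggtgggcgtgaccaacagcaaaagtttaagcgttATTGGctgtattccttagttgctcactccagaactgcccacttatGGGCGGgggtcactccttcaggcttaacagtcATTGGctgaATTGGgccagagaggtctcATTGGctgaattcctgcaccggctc
MRPL20 holds 1 NRF1 and 2 ETS matches. MRPS12 and MRPL4 each hold 1 SP1 and 4 CCAAT matches, and an ETS match of MRPS12 crosses the start site and so is not printed. MRPL12 holds no match to these letters in this window. MRPS12 and MRPL4 have a second window in the table, which is not shown.

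Promoter windows of 300 bases, 250 before and 50 after the start, were in the table for 70 of the 78 members, 86 windows in all. ETS letters were in 38.4% of the member windows (95% Wilson interval 28.8% to 48.9%), in 16.4% of the windows of genes tested in either line and in 10.3% of all 35116 windows. YY1 letters were in 20.9%, 5.87% and 3.19% of them, all of the member matches lying in the last 150 bases. The NRF1 motif was in 17.4%, 12.4% and 7.52%. The other motifs were E-box in 11.6%, 9.22% and 7.26%, SP1 in 60.5%, 64.2% and 45.0%, CCAAT in 32.6%, 34.9% and 34.6%, and TATA in 4.65%, 6.63% and 11.5%. Over the last 150 bases alone the order of members and tested genes turned for NRF1 (5.81% and 8.58%) and the E-box (3.49% and 5.63%), and did not for ETS (33.7% and 12.3%) or YY1 (20.9% and 4.65%). Windows of 1 gene can overlap, the intervals cover counting error only, and none of these shares was tested. A match is a run of letters and not evidence that a factor binds there.

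**Figure D3:**
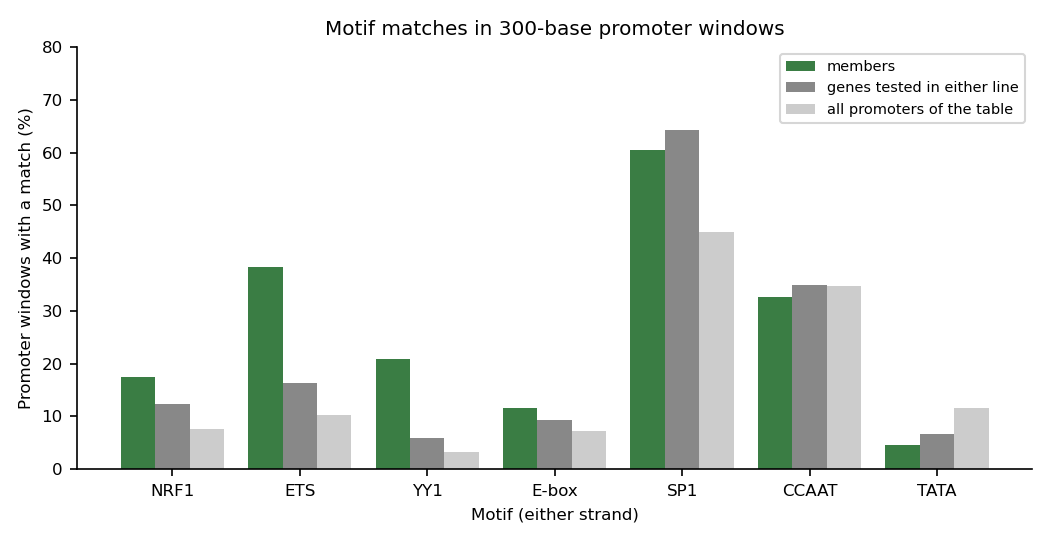
Share of 300-base promoter windows (percent, bars from 0) that hold each motif on either strand, for 86 member windows, 15481 windows of genes tested in either line and all 35116 windows. ETS and YY1 letters were in 38.4% and 20.9% of member windows, against 16.4% and 5.87% of the windows of tested genes.

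The medians of members with and without a motif were set side by side in each line. In INA6 the median difference was 0.13 for 30 members with an ETS match, of which 16 were higher, and 0.18 for 36 without, of which 24 were higher. In JJN3 the medians were 0.10 for 29 members with it, 13 of them higher, and 0.06 for 36 without, 13 of them higher. For YY1 the medians were 0.17 with and 0.15 without in INA6, and 0.03 and 0.09 in JJN3. For NRF1 they were 0.13 and 0.18 in INA6, and 0.12 and 0.06 in JJN3. The order of these 3 pairs of medians turned between the lines. Members with the E-box had the higher median in both lines (0.19 against 0.15 in INA6, 0.16 against 0.06 in JJN3). So did those with CCAAT (0.18 against 0.13, 0.09 against 0.06) and with TATA (0.22 against 0.16, 0.13 against 0.07). Only 8 or fewer of the members tested in a line held an E-box, and 3 a TATA match. SP1 gave 0.16 with and without in INA6, and 0.09 and 0.06 in JJN3. These are descriptions, with no test.

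Counts by role and for parts of the ribosome, here and below, stand beside 24.7% higher and 24.0% lower over all genes in INA6. In JJN3 25.5% of all genes went each way. By role, the large subunit members with a bacterial counterpart numbered 30. In INA6 20 of them were higher and 0 lower (median 0.16), and in JJN3 14 were higher and 5 lower (median 0.10). Of 20 tested members of the large subunit that were added in mitochondria, 10 were higher and 0 lower in INA6 (median 0.14), and 7 higher and 2 lower in JJN3 (median 0.08). MRPS30 and MRPS18A are counted here as large, since their proteins sit in the large subunit of the solved structures despite their names.

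The central protuberance, which in mitochondria carries a transfer RNA in place of a ribosomal RNA, had 5 of 8 members higher and 0 lower in INA6 (median 0.21). In JJN3 4 of 8 were higher and 0 lower (median 0.12). MRPL27 and MRPL38 (0.24 and 0.22) and MRPL18 (0.22 and 0.13) were higher in both lines, and MRPL46 was at 0.34 in INA6 and −0.02 in JJN3. The JJN3 call of MRPL18 was lost under 5 of 13 other settings, among them without control replicate 1 or 2 or knockdown replicate 2 (0.11, 0.13 and 0.12, with adjusted p = 0.11, 0.0592 and 0.0994). MRPL58, the peptidyl-tRNA hydrolase of the subunit, was at 0.04 and −0.02 and called in neither line.

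The stalk and its base had 5 tested members that went different ways. In INA6, MRPL12 (0.40) and MRPL11 (0.19) were higher and none was lower (median 0.14). In JJN3, MRPL12 (0.32) and MRPL54 (0.23) were higher and MRPL11 (−0.24) and MRPL10 (−0.22) were lower, with a median of −0.09. MRPL10 anchors MRPL12 to the ribosome, and MRPL11 forms the base of the stalk. The INA6 call of MRPL11 was lost without knockdown replicate 2 (0.14, adjusted p = 0.099, in a range of 0.00244 to 0.099 over the other settings).

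A list for the tunnel exit held MRPL17, MRPL22, MRPL23, MRPL24, MRPL39, MRPL44 and MRPL45, of which 6 were tested. In INA6 1 of the 6, MRPL22 (0.22), was higher and 0 lower, and their median was 0.07. In JJN3 MRPL17 was higher (0.25) and MRPL23 lower (−0.11), with a median of −0.02. Each of these JJN3 counts is 16.7% of the list, where 25.5% of all genes went each way. The groups overlapped for all 6 in INA6. MRPL45, which tethers the ribosome to the inner membrane, was below the minimum. The list is not complete, as it left out MRPL47. That gene was higher in INA6 (0.16, adjusted p = 0.0498) and not called in JJN3 (0.10, adjusted p = 0.144). Its INA6 call was lost under 5 of 13 other settings, among them without knockdown replicate 2 (0.10, adjusted p = 0.285). The MRPL22 call was lost without INA6 control replicate 2 or 3 (0.18 and 0.17, with adjusted p = 0.0739 and 0.0767). MRPL23 overlaps H19 and other genes in RefSeq, and its call was lost under 9 of 12 other settings, among them without control replicate 2 or 3 and without knockdown replicate 1 or 3 (−0.10, −0.09, −0.09 and −0.11, with adjusted p = 0.0856, 0.0792, 0.109 and 0.0583).

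Small subunit members with a bacterial counterpart were higher in 7 of 15 in INA6 (0 lower, median 0.11), and in JJN3 5 of 14 were higher and 3 lower (median 0.04). Those added in mitochondria were higher in 7 of 9 in INA6 (0 lower, median 0.19). In JJN3 25.5% of all genes went each way, and 2 of these 9 were higher (22.2%) and 1 lower (11.1%), with a median of 0.01. MRPS34 and MRPS26 were the 2 of these higher in both lines, MRPS26 by 0.20 and 0.16. MRPS7, a conserved protein of the head of the subunit, rose by 0.33 and 0.17.

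MRPS18A, MRPS18B and MRPS18C are paralogs that take different places in the ribosome. MRPS18A was at 3.70, 3.75 and 3.71 in the INA6 controls and at 3.84, 3.85 and 3.89 after knockdown (0.14, adjusted p = 0.0144). In JJN3 it was at 3.90, 3.90 and 3.87 against 3.91, 4.01 and 4.05 (0.10, adjusted p = 0.0439). Both calls lie near the minimum level and near the threshold. The INA6 call was lost without knockdown replicate 3 (0.12, adjusted p = 0.0551). The JJN3 call was lost under 7 of 12 other settings, among them without knockdown replicate 3 (0.07, adjusted p = 0.226), without knockdown replicate 2 (0.09, 0.119) and without control replicates 1, 2 or 3 (0.10, 0.11 and 0.09, with adjusted p = 0.0584, 0.0641 and 0.119). MRPS18C was at 3.34, 3.27 and 3.24 against 3.29, 3.23 and 3.27 in INA6 (−0.02, adjusted p = 0.73) and fell below the minimum in JJN3. MRPS18B was below it in both lines.

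MRPS30, of the large subunit by structure, was at 9.18, 9.15 and 9.26 in the INA6 controls and at 9.40, 9.47 and 9.49 after knockdown (0.26, adjusted p = 0.000288). In JJN3 it was at 10.27, 10.24 and 10.24 against 10.30, 10.31 and 10.32 (0.06, adjusted p = 0.209). The JJN3 groups did not overlap, yet the difference was within the test's error, and it was −0.02 with cyclic loess normalisation.

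Large and small subunit symbols had like shares of rises in INA6. There 28 of 48 MRPL genes (58.3%) and 16 of 26 MRPS genes (61.5%) were higher, and 0 of either were lower, with medians of 0.15 and 0.18. Over all genes 24.7% were higher and 24.0% lower in INA6, and 25.5% each way in JJN3. In JJN3 20 of 48 MRPL genes (41.7%) were higher and 7 lower (median 0.10), and 8 of 25 MRPS genes (32.0%) were higher and 4 lower (median 0.04). The median of the large subunit minus that of the small was −0.0275 in INA6 and 0.0559 in JJN3, so the order of the subunits differed between the lines. It turned to 0.0148 in INA6 without knockdown replicate 1 and to −0.0123 in JJN3 without knockdown replicate 3. Without INA6 knockdown replicate 2 or control replicate 3, 17 or 18 MRPL genes were higher in place of 28. Without JJN3 control replicate 2, 4 MRPL genes were lower in place of 7, and without control replicate 3, 2 MRPS genes in place of 4. In JJN3 the large subunit median was 0.05 without knockdown replicate 3, and the small subunit median 0.02 without control replicate 1, 0.02 with no minimum level and 0.07 with median centring. No test was made of this contrast.

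The falls were in JJN3. MRPL43, which was added in mitochondria, fell most, from 8.69, 8.86 and 8.81 in the controls to 8.46, 8.45 and 8.45 (−0.33, SE 0.0509, adjusted p = 2.71e-06). In INA6 it was at 9.37, 9.40 and 9.39 against 9.35, 9.25 and 9.44 (−0.04, adjusted p = 0.586), with the groups overlapping. MRPL43 lies on chromosome 10 from 100977820 to 100987497 and overlaps SEMA4G in RefSeq. Its values may hold reads of that gene or lack reads that fall in both.

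MRPL9, a conserved protein, fell from 9.21, 9.42 and 9.36 to 9.09, 8.98 and 9.00 in JJN3 (−0.31, adjusted p = 1.01e-05). In INA6 it was at 9.46, 9.41 and 9.46 against 9.57, 9.61 and 9.51, a difference of 0.12 (adjusted p = 0.0466). That INA6 call was lost under 10 of 13 other settings, in a range of 0.0115 to 0.201, including without control replicates 1, 2 or 3 (0.13, 0.10 and 0.13, with adjusted p = 0.0812, 0.158 and 0.0789) and without knockdown replicates 1 or 2 (0.12 and 0.10, with 0.0585 and 0.201). MRPL9 lies on chromosome 1 from 151759647 to 151763496 and overlaps OAZ3.

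MRPL11 fell from 8.65, 8.67 and 8.72 to 8.40, 8.44 and 8.48 in JJN3 (−0.24, adjusted p = 0.000158). In INA6 it rose from 8.32, 8.30 and 8.30 to 8.41, 8.60 and 8.48 (0.19, adjusted p = 0.0106), a call that rests on knockdown replicate 2 (without it 0.14, adjusted p = 0.099). MRPS15, which binds ribosomal RNA in the small subunit, fell from 7.17, 7.32 and 7.36 to 7.11, 7.01 and 7.04 in JJN3 (−0.23, adjusted p = 0.00187). In INA6 it rose from 7.71, 7.46 and 7.70 to 7.90, 7.91 and 7.99 (0.31, adjusted p = 0.000754). Neither gene's groups overlapped in either line.

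MRPL10 fell from 9.84, 9.88 and 9.90 to 9.64, 9.71 and 9.62 in JJN3 (−0.22, adjusted p = 0.000124), and was at 9.99, 10.03 and 10.02 against 10.03, 10.08 and 10.05 in INA6 (0.04, adjusted p = 0.488). MRPS10, a protein of the head of the small subunit, fell from 9.74, 9.77 and 9.87 to 9.63, 9.67 and 9.58 in JJN3 (−0.17, adjusted p = 0.0026), and was at 9.84, 9.79 and 9.87 against 9.94, 9.87 and 9.83 in INA6 (0.05, adjusted p = 0.431). The INA6 groups overlapped for both. MRPS28 fell from 8.51, 8.59 and 8.64 to 8.39, 8.39 and 8.46 in JJN3 (−0.17, adjusted p = 0.0076), and rose from 8.36, 8.38 and 8.30 to 8.50, 8.61 and 8.55 in INA6 (0.21, adjusted p = 0.00346). Its JJN3 call was lost without control replicate 3 (−0.14, adjusted p = 0.0502, in a range of 0.0049 to 0.0502). MRPS28 overlaps LOC124901966 and TPD52-MRPS28 in RefSeq.

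The other members lower in JJN3 were MRPL13 (−0.16), MRPS31 (−0.15), MRPL52 (−0.14) and MRPL23 (−0.11). Each of these 4 calls was lost with median centring, quantile and cyclic loess normalisation, where quantile gave −0.09, −0.07, −0.08 and −0.07 in that order, with adjusted p = 0.187, 0.331, 0.271 and 0.162. They were also lost without single libraries: without control replicate 2 they were at −0.14, −0.15, −0.13 and −0.10, with adjusted p = 0.0626, 0.0527, 0.119 and 0.0856. Under every other setting tried, 6 of the 11 falls in JJN3 kept their call: MRPL9, MRPL10, MRPL11, MRPL43, MRPS10 and MRPS15. So did 18 of the 28 rises in JJN3 and 26 of the 44 rises in INA6.

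The change differed between the lines for 19 of 73 members, 18 with INA6 above JJN3 and 1 with JJN3 above INA6. The test divided the difference of the 2 within-line differences by its SE, adjusted over 11137 genes. Over all those genes 15.6% had INA6 above JJN3 and 14.4% the reverse. MRPL and MRPS symbols each gave 9 of the 18. The INA6 value was the higher for 60 of 73 members, with a median of 0.10 between the lines, against 0.02 over all genes. The lines were normalised apart, so a shift of scale in either table moves all these differences together.

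Of the 19, MRPS15 had the largest difference between lines, 0.54 (SE 0.0903, adjusted p = 5.09e-06). MRPL9 followed at 0.43 (SE 0.0709, adjusted p = 3.98e-06), MRPL11 at 0.43 (SE 0.0761, adjusted p = 1.49e-05) and MRPS28 at 0.37 (SE 0.0751, adjusted p = 9.87e-05). The reverse was found for MRPS6, a conserved protein of the small subunit platform. It was at 9.69, 9.64 and 9.67 against 9.58, 9.58 and 9.60 in INA6 (−0.08, adjusted p = 0.171) and at 9.46, 9.54 and 9.50 against 9.64, 9.63 and 9.63 in JJN3 (0.13, adjusted p = 0.0114). The line difference was −0.21 (SE 0.064, adjusted p = 0.00874). Quantile or cyclic loess normalisation ended the JJN3 call of MRPS6 (adjusted p = 0.0762 and 0.115, in a range of 0.00293 to 0.115), and so did leaving out control replicate 1 (0.11, adjusted p = 0.0736). The INA6 fall passed with cyclic loess (−0.12, adjusted p = 0.0415). MRPS6 overlaps RPS5P2 and SLC5A3 in RefSeq, so its values may hold reads of those genes or lack shared reads.

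**Figure D4:**
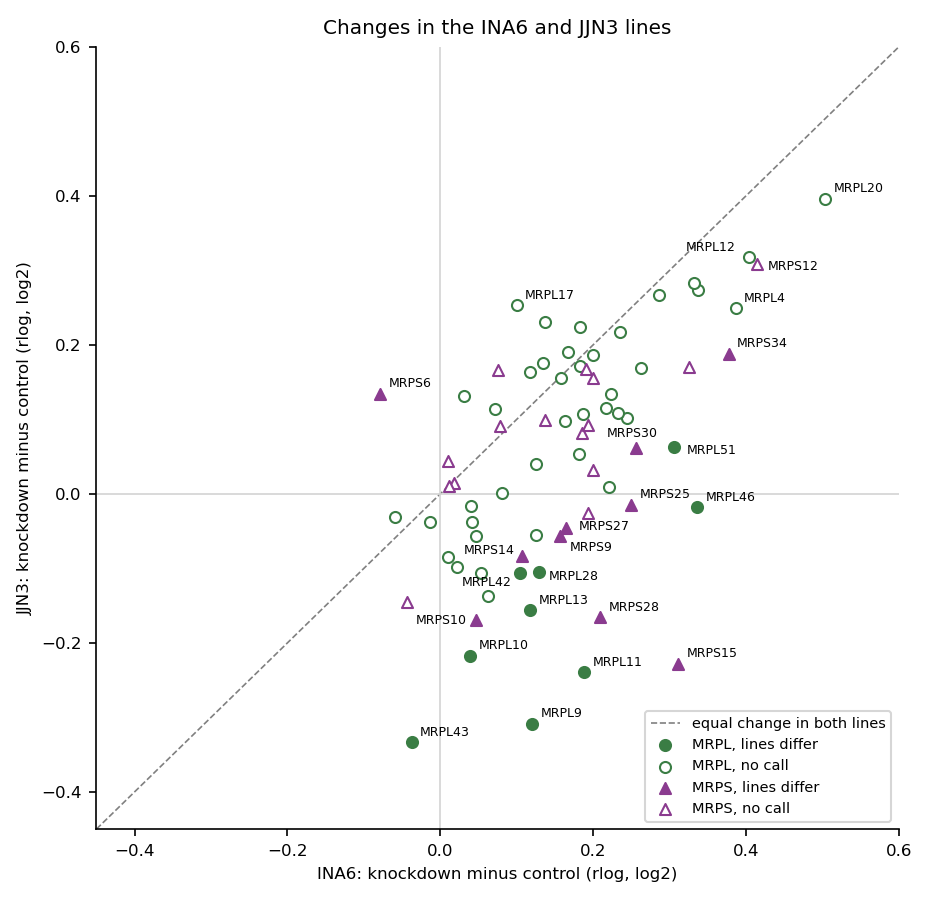
Difference with knockdown in INA6 (x axis) against JJN3 (y axis), rlog on the log2 scale, for the 73 members tested in both lines, with the line of equal change dashed. Filled symbols mark the 19 members whose change differed between the lines, 18 below the dashed line and MRPS6 above it.

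Across the 73 members the changes in the lines had Pearson r = 0.54 and Spearman rho = 0.52, given as a description over genes, which are not independent and share libraries. For the 48 large subunit members r was 0.65, and for the 25 small subunit members 0.29. Over all 11137 genes r was 0.49. The plasma cell markers also went different ways in the lines, 2 higher and 7 lower of 10 in INA6, and 6 higher and 1 lower in JJN3. Their summed level, as log2 of the summed linear values, was 16.9 to 17.0 in the INA6 controls and 16.5 to 16.6 after knockdown, and 16.6 to 16.7 and 16.8 in JJN3. The part of cell state in the line differences was not tested.

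The members under the minimum in both lines were MRPL45, MRPS18B, MRPS24 and MRPS36, and MRPS18C was tested only in INA6. MRPS18B was at exactly 0 in every INA6 library and MRPS24 in every JJN3 library. A value this low does not show absence in these tables, and none of these genes was given a fold change. MRPS36, listed as KGD4 in RefSeq, belongs to the 2-oxoglutarate dehydrogenase complex and not to the ribosome.

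Some proteins of the ribosome or bound to it have symbols outside the rule. A list of 6 such genes includes OXA1L, the insertase that takes up the nascent chains, which is not itself a ribosomal protein. Of the 6, 3 were higher and 0 lower in INA6 (median 0.19), and 2 were higher and 0 lower in JJN3 (median 0.08). OXA1L was at 0.11 and −0.003 and called in neither line. DAP3, a GTP-binding protein of the small subunit, rose by 0.27 in INA6 (adjusted p = 6.47e-05) and by 0.22 in JJN3 (adjusted p = 7.47e-05). AURKAIP1, also of the small subunit, rose by 0.30 and 0.15. GADD45GIP1, of the large subunit, rose by 0.33 in INA6 and was at 0.07 in JJN3 (adjusted p = 0.192), and PTCD3 was at 0.05 and 0.09 and called in neither line.

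Counts for genes that act with the ribosome are given by list, beside 24.7% higher and 24.0% lower over all genes in INA6 and 25.5% each way in JJN3. Of 16 mitochondrial translation factors, 6 were higher and 2 lower in INA6 and 4 higher and 4 lower in JJN3 (median 0.04 in each), which in JJN3 is about the share over all genes. TUFM, the elongation factor that brings transfer RNAs, rose by 0.28 and 0.20, and its exchange factor TSFM by 0.29 and 0.17. LRPPRC, which stabilises mitochondrial messenger RNAs, rose by 0.33 and 0.13, and the peptide deformylase PDF by 0.40 and 0.36. The release factor MTRF1 fell in both lines (−0.17 and −0.25). MTIF3 fell in both as well (−0.27, adjusted p = 0.00115, and −0.16, adjusted p = 0.0318). GFM2 (−0.20) and TACO1 (−0.21) fell in JJN3 and were not called in INA6.

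Of 19 tested aminoacyl-tRNA synthetases and amidotransferase subunits of mitochondria, 6 were higher and 1 lower in INA6 (median 0.10), and 3 higher and 6 lower in JJN3 (median −0.10). MARS2, which charges methionine, rose by 0.27 and 0.22, and CARS2, for cysteine, by 0.30 and 0.23. PARS2, for proline, fell in both lines (−0.36 and −0.29). TARS2, for threonine, fell in JJN3 (−0.50, adjusted p = 7.9e-10) and was at −0.11 in INA6 (adjusted p = 0.0791). GATB, of the amidotransferase, was at 0.07 in INA6 (adjusted p = 0.364) and fell in JJN3 (−0.29).

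Of 28 assembly factors of the ribosome, 14 were higher and 2 lower in INA6 (median 0.16), and 11 higher and 5 lower in JJN3 (median 0.07). The RNA helicase DHX30 rose by 0.30 and 0.26 and the rRNA methyltransferase MRM2 by 0.31 and 0.22. C1QBP, a matrix protein, rose by 0.48 in INA6 and was at 0.08 in JJN3 (adjusted p = 0.109). METTL15, which methylates the small subunit RNA, fell in both lines (−0.18 and −0.49), and LETMD1 fell in JJN3 (−0.35) and was at 0.03 in INA6 (adjusted p = 0.589).

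Transcription and RNA processing in mitochondria had 8 of 11 genes higher and 0 lower in INA6 (median 0.27), and 7 higher and 1 lower in JJN3 (median 0.14). TFAM, which packages mitochondrial DNA and helps to start its transcription, rose by 0.32 and 0.22. The transcription factor TFB2M rose by 0.35 and 0.34, and TRMT10C, of the ribonuclease P, by 0.35 and 0.33. Of 9 nuclear regulators of such genes, 5 were higher and 1 lower in INA6 and 4 higher and 1 lower in JJN3. The coactivators PPRC1 (0.58 and 0.22) and PPARGC1B (0.45 and 0.22) rose in both lines, and MYC fell in both (−0.52 and −0.40). NRF1 was at 0.14 in INA6 (adjusted p = 0.0423) and −0.08 in JJN3 (adjusted p = 0.273). YY1 was at 0.17 (adjusted p = 0.00123) and 0.03 (adjusted p = 0.544). The ETS factor GABPA was at 0.06 and 0.02, called in neither. GABPB1, also on this list, was higher in both lines (0.22, adjusted p = 0.00167, and 0.24, adjusted p = 0.000489). ESRRA was at 0.05 in INA6 (adjusted p = 0.408) and higher in JJN3 (0.16, adjusted p = 0.0054). PPARGC1A was called in neither line.

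The NSL complex itself had 3 of 8 tested subunits higher and 4 lower in INA6, and 3 higher and 2 lower in JJN3, KANSL2 included. The cytosolic ribosomal proteins, by symbol, had 35 of 84 higher and 11 lower in INA6 (median 0.10), and 33 of 81 higher and 6 lower in JJN3 (median 0.07). Beside them the mitochondrial members had 44 of 74 higher and 0 lower in INA6 and 28 of 73 higher and 11 lower in JJN3. The difference between these lists was not tested.

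Many members are transcribed head to head with another gene. After the values were seen, start sites within 1000 bases on opposite strands, pointing apart, were listed from RefSeq, which gave 26 members in 27 pairs, with MRPL46 and MRPS11 counted from each side. In INA6, 19 pairs had both genes tested. In 7 both genes were higher, in 0 both were lower, in 2 they moved oppositely, in 4 only the member and in 2 only the partner was called, and in 4 neither was. In JJN3 the counts over 18 pairs were 3, 0, 2, 7, 3 and 3. With 0 members lower in INA6, no pair there could have both genes lower. The partners were 9 higher and 2 lower in INA6, and 4 higher and 4 lower in JJN3. Over all genes 24.7% were higher and 24.0% lower in INA6, and 25.5% each way in JJN3. The JJN3 partners were thus near the share of all genes. Whether the genes of a pair moved together more than other genes was not tested. MRPL32 and PSMA2, a proteasome subunit 202 bases away, both rose in INA6 (0.33 and 0.34) and JJN3 (0.28 and 0.30). So did MRPL18 and the chaperonin gene TCP1 (0.22 and 0.42, then 0.13 and 0.15). The JJN3 call of MRPL18 in that pair was not kept under all settings, with adjusted p up to 0.11 without control replicate 1 (0.11). MRPL27 rose (0.29 and 0.27) while EME1, 45 bases away, fell (−0.23 and −0.28). MRPS12 rose in both lines, and SARS2, the mitochondrial synthetase for serine 181 bases away, was at 0.19 in INA6 (adjusted p = 0.014) and −0.12 in JJN3 (adjusted p = 0.114).

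In all, 32 of the 78 members overlap another gene span in RefSeq. Because strand use and the handling of shared reads in counting are unknown, their values are less certain than those of the other members. Among the members with the largest changes, MRPL12, MRPL32, MRPL15, MRPL27, MRPS12, MRPL10, MRPL11, MRPS10 and MRPS15 overlap none.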

How the data were processed

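The authors deposited 1 table of rlog values (log2 scale) for each line. Reads had been handled with Trim Galore, Bowtie2, HTSeq and DESeq2 on hg38, per the submitters' processing notes, while tool settings, annotation and strand use were not given there. The tables hold no counts, so depth per library is unknown, and rlog understates changes of weakly expressed genes. Knockdown was compared with control within a line by limma 3.58.1 in R 4.3.3 (lmFit, then eBayes with trend) over genes with a mean of at least 3, with Benjamini-Hochberg adjustment over all of them and a threshold of 0.05. For the lines, the difference of their differences was set against its standard error, taken from both fits, on the degrees of freedom of both together. The code was tested on simulated data. An exact permutation of 3 against 3 libraries cannot go below 0.1 and was not used. No 2 libraries held identical values.

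Members and lists were chosen with earlier results of these data known. Named members were the 6 largest rises and falls called in each line, up to 4 per direction with the smallest p for the line difference, and MRPS18A, MRPS18B, MRPS18C, MRPS30, MRPS36, MRPL12 and MRPS12. From the other lists up to 3 genes per line were named by smallest p. Members and genes named beyond that complete a count and were chosen after their values were seen, as were the head-to-head pairs. The NRF1 motif was shortened by 1 base after the files were read and before any match was counted. All 78 members matched RefSeq (GRCh38.p14) by symbol or synonym. The alternatives were other minimum levels, median centring, quantile and cyclic loess normalisation, no trend, a replicate block, the subunit by place in the ribosome, and leaving out each library. The 4 chromatin accessibility libraries of JJN3 were not analysed here.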

Additional observations from a re-analysis of the deposited data

Results flagged for a closer look

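The response to KANSL2 repression differed between INA6 and JJN3, by the test of the difference itself, for 19 of 73 members, or 26.0%, against 30.0% of all 11137 genes. The share was thus near that of all genes, and 18 of the 19 had the larger value in INA6. The 12 that passed under every setting tried were MRPS15 (0.54, INA6 minus JJN3), MRPL9 (0.43), MRPL11 (0.43), MRPS28 (0.37), MRPL46 (0.35), MRPL43 (0.30), MRPL13 (0.27), MRPS25 (0.26), MRPL10 (0.26), MRPL28 (0.23), MRPS10 (0.22) and MRPS6 (−0.21), the last the only one larger in JJN3. Their adjusted p lay between 3.98e-06 for MRPL9 and 0.00992 for MRPS10.

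The other 7 passed as reported and lost the call when some library was left out. MRPL51 (0.24) fell to 0.16 (adjusted p = 0.188) without INA6 knockdown replicate 2, and also lost it without INA6 control replicates 1 or 3, JJN3 control replicate 3 or JJN3 knockdown replicates 1 or 2. MRPL42 (0.21) was at 0.14 (adjusted p = 0.127) without JJN3 knockdown replicate 3, and lost it without INA6 control replicates 2 or 3, INA6 knockdown replicate 1 or JJN3 control replicate 1. MRPS9 (0.21) was at 0.18 (adjusted p = 0.114) without INA6 knockdown replicate 2, and 6 further libraries and 3 further settings ended its call. MRPS14 (0.19) was at 0.17 (adjusted p = 0.101) without INA6 control replicate 2, and 6 further libraries and the replicate block ended its call. MRPS27 (0.21) lost it without JJN3 control replicate 3 (0.16, adjusted p = 0.063). MRPS30 (0.19) lost it without INA6 control replicate 2 (0.17, adjusted p = 0.073) or INA6 knockdown replicate 2 (0.19, adjusted p = 0.0562). MRPS34 (0.19) was at 0.15 (adjusted p = 0.105) without INA6 control replicate 3, and lost it without INA6 knockdown replicates 2 or 3, without JJN3 knockdown replicate 2 and without the variance trend. KANSL2 itself was lower by 0.39 in INA6 and by 1.21 in JJN3, and the part of that gap in these differences was not tested.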

How the results depend on the processing

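Cyclic loess gave 1 lower member in INA6, and median centring 7 lower members in JJN3, where leaving out a library gave 7 to 11. The large minus small subunit median in INA6 (−0.0275) ran from −0.0463 to 0.0148 with a library left out. In JJN3 (0.0559) it was 0.0748 with no minimum level, 0.0684 with a minimum of 5, 0.0294 with quantile and 0.0269 with cyclic loess normalisation, 0.0663 by place in the ribosome, and −0.0123 to 0.0636 with a library left out. Over all settings the sign turned for 14 of 74 tested members in INA6 and 17 of 73 in JJN3, none of them called before or after. Among the members named by rule, these were in INA6 MRPL10 (−0.0136 with quantile, −0.0148 with cyclic loess), MRPL43 (0.0000 with median centring, −0.0825 to 0.0121 with a library left out), MRPS10 (−0.0008 with cyclic loess) and MRPS18C (0.0178 with median centring, −0.0415 to 0.0083 with a library left out). In JJN3, among the members named by rule, it was MRPS30 (−0.0006 with quantile, −0.0151 with cyclic loess). The causes were not tested. Same-numbered libraries did not deviate together (correlations of −0.296 to −0.0678 in INA6 and −0.014 to 0.00452 in JJN3). Deviations from a group mean sum to 0 within the group, so this cannot show whether same-numbered libraries were prepared together. With a replicate block 39 members were higher and 0 lower in INA6, 29 higher and 10 lower in JJN3, and 16 and 1 differed between lines. Unknown depth limits what can be said of members near the minimum level.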
